A study of Mus musculus with 12 samples.

Results

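Unfolded protein response genes were followed in cardiomyocytes of dystrophin-deficient mouse hearts through 10 transcripts, taken by symbol from a deposited table of 18530 genes. They are the chaperone genes Hspa5, Hsp90b1 and Calr, the folding and quality control genes Pdia4, Sdf2l1, Dnajb9 and Herpud1, and the transcription factor genes Xbp1, Atf4 and Ddit3. All 10 had a row in the table and all 10 passed the filter on low values. Rows were taken by symbol and not by value, though the list was chosen with earlier results of these data known.

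Proteins that enter the endoplasmic reticulum (ER) are folded there by chaperones, and when unfolded protein builds up, sensors in the ER membrane start the unfolded protein response. The kinase PERK slows translation through eIF2alpha and raises ATF4 and then CHOP, the product of Ddit3. The nuclease IRE1 splices Xbp1 mRNA, and ATF6 is cut free in the Golgi, after which both factors switch on chaperone and degradation genes. In heart muscle, whose calcium store is a specialised ER, this response is known from pressure overload and ischaemia. The table gives gene totals, so spliced and unspliced Xbp1 mRNA were not separated.

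The study compared PB1046, a long-acting analog of vasoactive intestinal peptide, with saline in 2 genotypes that both lack dystrophin through the mdx allele. The 4 groups were mdx:Utrn+/- mice given PB1046, mdx:Utrn+/- mice given saline, mdx mice given PB1046 and mdx mice given saline, with 3 libraries each. The mdx:Utrn+/- mice also have only a partial supply of utrophin, the dystrophin homolog, because a copy of Utrn is disrupted. There was no group with intact dystrophin, so every control carried the mdx allele. Dosing was every other day between weeks 4 and 12 of age, hearts were taken at week 14, and the PB1046 libraries are labelled as the high dose. The treatment protocol names 0.75 and 1.5 mg/kg, and the high dose is read here as 1.5 mg/kg. Messenger RNA came from frozen pellets of isolated cardiomyocytes with an RNA integrity number of at least 8. Whether each library is a mouse of its own, or holds pooled mice, is not stated in the labels, so p-values measure the spread between these libraries.

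Levels are given as scaled TPM, that is TPM, a measure of each gene's share of transcripts corrected for gene length, divided by a trimmed-mean scaling factor of the library. Libraries held 7234100 to 25458194 reads, recovered from the TPM steps. Utrn averaged 5.66 ± 1.65 scaled TPM in mdx:Utrn+/- saline and 9.65 ± 1.25 in mdx saline, and 6.80 ± 1.60 in mdx:Utrn+/- PB1046 and 11.3 ± 4.25 in mdx PB1046 (SD, n = 3 each), which follows the genotype labels on average though its adjusted p was 0.867 and 0.999 (limma). Cardiomyocyte markers summed to 77580 to 161800 scaled TPM (8 of 8 genes), endothelial markers to 102.0 to 443.2 (6 of 6), fibroblast markers to 130.5 to 580.6 (6 of 6), macrophage markers to 44.4 to 243.1 (7 of 8 in the table) and pericyte and smooth muscle markers to 123.2 to 271.7 (6 of 6). B and plasma cell markers summed to 7.28 to 10.7 (4 of 6 in the table) and erythroid markers to 18.7 to 830.7 (5 of 5). No matched marker was at 0 in any library. In bulk samples of this kind, fewer cells of a type and less RNA per cell cannot be told apart. The mdx:Utrn+/- saline replicate 3 stood apart from its group, at 35.6 on the second principal component (21.8% of variance), against -40.2 and -20.2. On the first component (30.8%), mdx:Utrn+/- PB1046 replicate 2 stood apart from its group (31.7, against -18.1 and -20.7), as did replicate 1 of mdx PB1046 (-27.9, against 28.5 and 35.1) and of mdx saline (-23.0, against 22.8 and 23.7). Without mdx PB1046 replicate 1, 962 genes in place of 407 had an unadjusted p under 0.05 for PB1046 in mdx. Without mdx:Utrn+/- saline replicate 3, 1926 of 12774 genes in place of 489 of 12798 had an unadjusted p under 0.05 between genotypes under saline, and 0 passed adjustment.

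Known sequences for ER stress factors were searched in the promoters of the 10 genes, and promoters with a match are shown before the values. Whether these sequences bear on the values was not tested. The ER stress response element, CCAAT and CCACG with any 9 bases between them, is bound by ATF6 with the factor NF-Y and also by XBP1, and ER stress response element II, ATTGG and CCACG with any 1 base between them, is the related form first described at Herpud1. Both strands of the 250 bases before the RefSeq start (GRCm38.p6) were searched, and all 10 genes had a promoter sequence. The lines below give Hspa5 at chr2:34771840-34772089 (+ strand), Hsp90b1 at chr10:86705445-86705694 (- strand), Calr at chr8:84846932-84847181 (- strand) and Herpud1 at chr8:94386179-94386428 (+ strand), each 5′ to 3′ along its gene, with matches in capitals.
Hspa5: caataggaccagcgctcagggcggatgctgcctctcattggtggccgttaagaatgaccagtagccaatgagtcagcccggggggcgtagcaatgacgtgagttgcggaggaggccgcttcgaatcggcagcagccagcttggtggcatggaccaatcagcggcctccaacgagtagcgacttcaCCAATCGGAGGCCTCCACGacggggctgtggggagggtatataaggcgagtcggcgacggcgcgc
Hsp90b1: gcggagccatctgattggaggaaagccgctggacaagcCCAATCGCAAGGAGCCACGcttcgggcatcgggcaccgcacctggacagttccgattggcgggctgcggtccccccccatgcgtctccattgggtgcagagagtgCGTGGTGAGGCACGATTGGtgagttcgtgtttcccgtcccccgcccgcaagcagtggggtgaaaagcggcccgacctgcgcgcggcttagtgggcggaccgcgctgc
Calr: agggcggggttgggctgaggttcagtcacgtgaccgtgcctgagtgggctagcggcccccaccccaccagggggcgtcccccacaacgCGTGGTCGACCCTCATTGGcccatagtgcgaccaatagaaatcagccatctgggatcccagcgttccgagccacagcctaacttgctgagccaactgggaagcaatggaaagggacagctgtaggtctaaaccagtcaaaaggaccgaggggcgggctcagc
Herpud1: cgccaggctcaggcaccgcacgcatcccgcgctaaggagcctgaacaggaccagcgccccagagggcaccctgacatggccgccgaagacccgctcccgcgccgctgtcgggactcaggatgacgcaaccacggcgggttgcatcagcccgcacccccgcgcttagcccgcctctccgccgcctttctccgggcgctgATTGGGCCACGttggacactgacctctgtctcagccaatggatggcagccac
The first element was in 3 of the 10 promoters (Hspa5, Hsp90b1 with 2 matches, and Calr, the Calr match and the Hsp90b1 match nearer to the start being on the opposite strand) and in 37 of 32851 promoters of all genes (0.113%). Element II was in 1 of the 10 (Herpud1) and in 10 of 32851 (0.0304%). Both elements were known from ER stress genes before this search, so these counts are a description and no test of enrichment. The unfolded protein response element TGACGTGG was in 0 of the 10 and in 0.563% of all promoters, and the core TGATGNAA of the C/EBP-ATF element that ATF4 and CHOP bind was in Herpud1 alone among the 10, on the opposite strand and left in lower case, and in 3.45% of all. The capitals mark letters, not bound sites. Only exact letters were searched, so a near match inside the window counts as missing, and a missing motif may also lie elsewhere.

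Across the 12 libraries the order of the levels was steady at its ends. Hspa5, the gene of BiP, the main ER chaperone and the brake on all 3 sensors, was the highest of the 10 in every library, with a median of 435.2 scaled TPM (range 244.8 to 625.5) and rank 317 of 12798 genes tested. Sdf2l1, whose product works with BiP and its co-chaperones, was the lowest in every library (median 6.02, range 4.00 to 13.4, on 24 to 187 reads).
Between them, Hsp90b1 (GRP94, a chaperone of secreted and membrane proteins; median 269.2, range 213.2 to 376.4) and Calr (calreticulin, a lectin chaperone that also binds ER calcium; 254.6, 209.8 to 426.3) were close and exchanged ranks. Herpud1, a membrane protein that recruits the ER degradation machinery, had a median of 218.3 and the widest span, 5.56 times between the lowest (75.2) and the highest library (418.5). Its range overlapped those of Hsp90b1 and Calr, so the order of these 3 genes was not separated by their spread.
Atf4 (median 111.5, range 91.3 to 211.4) and Ddit3 (78.9, 51.0 to 158.7) came next and also overlapped. Xbp1 (41.1, 33.8 to 65.75), Dnajb9 (ERdj4, a co-chaperone of BiP; 22.6, 10.9 to 53.8) and Pdia4 (a protein disulfide isomerase; 16.4, 10.2 to 27.3) were lower, with overlap between neighbours. Hspa5 lies at chr2:34772090-34776529, Hsp90b1 at chr10:86690841-86705444, Calr at chr8:84842088-84846931, Herpud1 at chr8:94386500-94395358 and Ddit3 at chr10:127290793-127296288 (mm10, 1-based, from the deposited table). Exons of Hsp90b1 overlap those of the transcribed pseudogene 1810014B01Rik on the opposite strand and of the processed transcript Gm15344 on the same strand (GENCODE M21). Calr has a processed pseudogene copy elsewhere. Whether strand was used in counting is not given in the sources used here. Reads of such partners may be mixed in, for Gm15344 and the Calr copy also where strand was used.

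**Figure D1:**
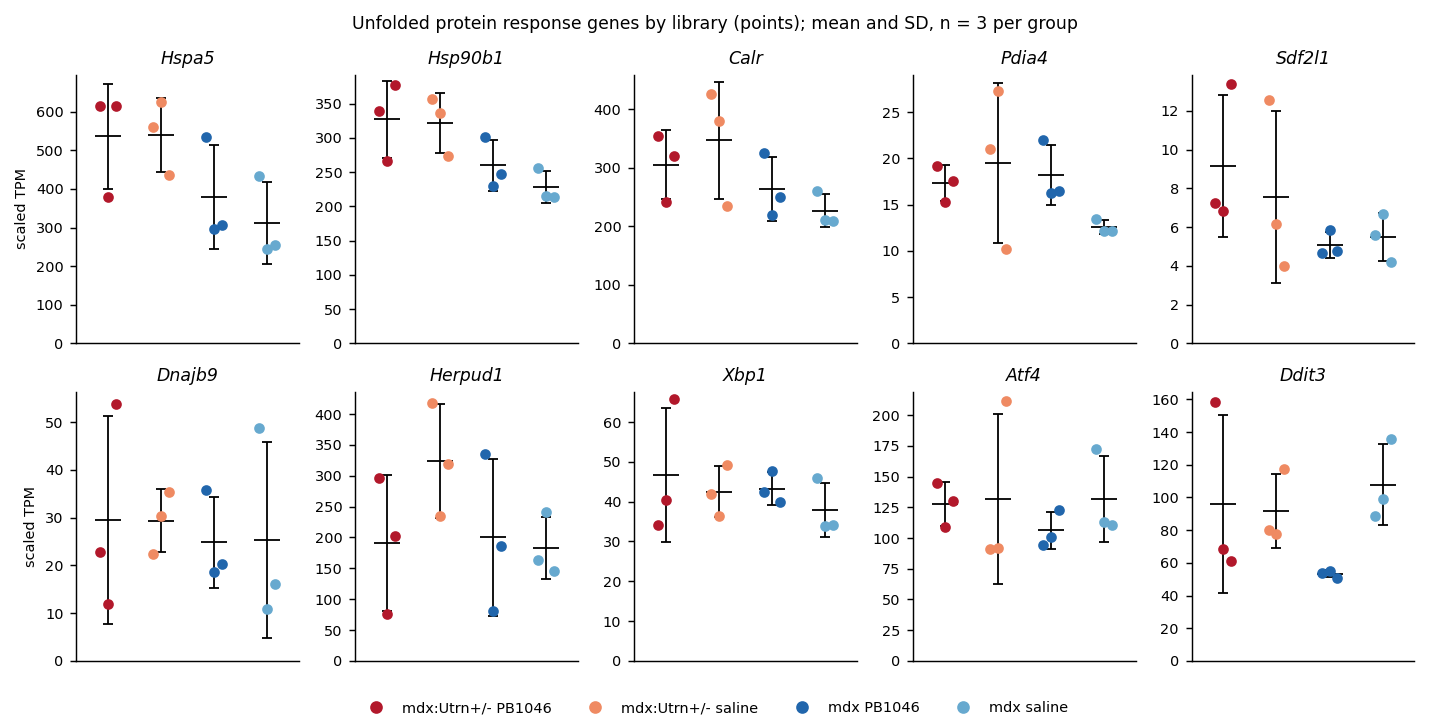
Scaled TPM (linear axis from 0) of the 10 genes in each library, with the group mean as a bar and the SD as whiskers, n = 3 per group, mdx:Utrn+/- PB1046 at the left and mdx saline at the right. Hspa5 and Hsp90b1 show no overlap between mdx:Utrn+/- saline and mdx saline on this scale, though both overlap on TPM as deposited, and Ddit3 lies at 51.0 to 55.2 in mdx PB1046, below all 3 mdx saline libraries.

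The genotypes were compared under saline first, which asks whether loss of a Utrn copy on the mdx background goes with a different level of these genes. Hspa5, Hsp90b1 and Calr were the members with the smallest p, and each averaged higher in mdx:Utrn+/- than in mdx. None of the 10 passed the test (adjusted p 0.867 to 0.966, limma with Benjamini-Hochberg adjustment over 12798 genes), and no gene of the whole table did (0 of 12798, 0.0%). At an unadjusted p under 0.05 there were 3 of 10 members, all higher, against 3.82% of all genes in either direction and 1.55% higher (489 and 199 genes; 465 in either direction by limma-voom on recovered reads, which also called 0). The 3 became 0 without replicate 1 or 2 of mdx:Utrn+/- saline, without replicate 2 or 3 of mdx saline, and with the endothelial marker score as a term. They became 1 without the scaling factors (Hspa5), and 1 with a term for the 3 lowest library numbers (replicate 1 of each group but mdx saline). They became 2 without replicate 1 or 3 of mdx:Utrn+/- PB1046 or replicate 2 or 3 of mdx PB1046. They became 4 without mdx:Utrn+/- saline replicate 3 (Pdia4 added).

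Hspa5 held 559.1, 625.5 and 436.0 scaled TPM in the mdx:Utrn+/- saline libraries, against 434.3, 244.8 and 255.4 in the mdx saline libraries. The groups did not overlap, but the lowest mdx:Utrn+/- library and the highest mdx library were almost level. The means were 540.2 ± 96.2 and 311.5 ± 106.5 (SD, n = 3 each), a log2 difference of 0.83 (95% interval 0.14 to 1.51, unadjusted p = 0.0216, adjusted p = 0.867, limma).
Hsp90b1 held 356.2, 336.4 and 272.8 scaled TPM in mdx:Utrn+/- saline, against 255.9, 215.7 and 213.2 in mdx saline. Here too the groups did not overlap, and the log2 difference was 0.49 (95% interval 0.05 to 0.93, unadjusted p = 0.0333, adjusted p = 0.867, limma). These were the 2 of 10 members that were higher without overlap, as were 3.81% of all genes, and 0 of 10 were lower without overlap, against 5.68%. Both separations depend on the scaling factors: on TPM as deposited, 0 of 10 members were higher without overlap, against 0.703% of all genes, and 0 were lower, against 15.1%.
Calr held 426.3, 379.9 and 234.8 scaled TPM in mdx:Utrn+/- saline, against 259.8, 210.6 and 209.8 in mdx saline. Replicate 3 of mdx:Utrn+/- lay inside the mdx range, and the log2 difference was 0.57 (95% interval 0.01 to 1.14, unadjusted p = 0.0477, adjusted p = 0.867, limma). Without that library the log2 differences were 0.97 for Hspa5, 0.60 for Hsp90b1 and 0.83 for Calr (adjusted p = 0.252, 0.257 and 0.206, limma).

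Pdia4 held 21.1, 27.3 and 10.2 scaled TPM in mdx:Utrn+/- saline, against 13.45, 12.2 and 12.1 in mdx saline. The groups overlapped because replicate 3 of mdx:Utrn+/- was the lowest of all 12 libraries, and the log2 difference of 0.49 was 0.21 without replicate 2 and 0.88 without replicate 3 of that group (adjusted p = 0.171 in the second case, limma). Herpud1 held 418.5, 234.8 and 319.0 scaled TPM in mdx:Utrn+/- saline, against 163.3, 240.8 and 145.7 in mdx saline, with overlap of a library of each group (log2 difference 0.81, 95% interval -0.36 to 1.99). Dnajb9 (22.35 to 35.4 against 10.9 to 48.7) and Sdf2l1 (4.00 to 12.5 against 4.21 to 6.68) overlapped widely, with log2 differences of 0.46 and 0.29.

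The transcription factor genes differed less than the chaperones under saline. Xbp1, the target of IRE1, held 42.0, 36.3 and 49.3 scaled TPM in mdx:Utrn+/-, against 45.8, 33.8 and 34.1 in mdx (log2 difference 0.17). Atf4, translated when eIF2alpha is phosphorylated, held 91.3, 92.3 and 211.4 against 172.1, 112.8 and 110.3 (-0.09). Ddit3, which encodes the pro-apoptotic factor CHOP, held 80.4, 77.4 and 117.7 against 88.5, 99.2 and 135.8 (-0.23). In all 3 genes the libraries of the genotypes overlapped, and the highest Atf4 value of the series was again mdx:Utrn+/- saline replicate 3.

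In all, 8 of 10 members were higher and 2 lower in mdx:Utrn+/- under saline (median log2 difference 0.48, against -0.02 over all genes). Part of this rests on scaling: without the factors the median of all genes moved to -0.20, 7 members were higher and 3 lower, and Hspa5, Hsp90b1 and Calr differed by 0.61, 0.27 and 0.36 (log2). Endothelial markers summed to 102.0 to 185.8 scaled TPM in mdx:Utrn+/- saline and 192.8 to 325.7 in mdx saline, and cardiomyocyte markers to 148100 to 155400 and 117400 to 132600, both without overlap. With the endothelial score (the mean centred log2 level of its markers) as a term, the log2 differences of Hspa5, Hsp90b1 and Calr were 0.41, 0.30 and 0.30. Fewer endothelial cells and a genotype difference cannot be told apart in these groups. Replicate 2 of mdx:Utrn+/- saline, the highest library of all for Hspa5 and Pdia4, was also the shallowest (7234100 reads). It held 42106 TPM of the ribosomal precursor Rn45s, against 1039 to 10400 in mdx saline. With log2 Rn45s as a term, 9 members were higher and 1 lower, and 2 had an unadjusted p under 0.05 (limma). The part of depth and Rn45s was not tested beyond that fit.

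Under PB1046 none of the 10 members had an unadjusted p under 0.05, against 1.77% of all genes (0 called by limma, 226 at an unadjusted p under 0.05; 0 and 237 by limma-voom). Without mdx:Utrn+/- PB1046 replicate 2 there were 2 such members, and all 10 were higher (median log2 difference 0.49). All 10 were also higher without mdx PB1046 replicate 1 (median 0.40). Without mdx:Utrn+/- PB1046 replicate 3, 6 were higher and 4 lower (median 0.19), as with log2 Rn45s as a term (0.20). Without replicate 2 or 3 of mdx PB1046, 7 were higher and 3 lower. Hspa5 held 615.5, 378.0 and 614.0 scaled TPM in mdx:Utrn+/- PB1046, against 533.0, 294.9 and 306.9 in mdx PB1046 (log2 difference 0.52, 95% interval -0.16 to 1.20). Replicate 2 of mdx:Utrn+/- fell within the mdx range, and the same library was the lowest of its group for Hsp90b1 (265.5 against 339.0 and 376.4) and Calr (240.8 against 355.0 and 320.5). Ddit3 held 158.7, 68.3 and 61.0 scaled TPM in mdx:Utrn+/- PB1046, against 53.85, 55.2 and 51.0 in mdx PB1046 (log2 difference 0.70, unadjusted p = 0.0538, adjusted p = 0.999, limma). The other members differed by 0.33 (Hsp90b1), 0.26 (Atf4), 0.21 (Calr), 0.06 (Xbp1), 0.05 (Dnajb9), -0.05 (Herpud1) and -0.06 (Pdia4), all with overlap. Sdf2l1 held 7.24, 6.845 and 13.4 against 4.66, 5.88 and 4.77 (0.68, adjusted p = 0.999, limma). These 2 members were higher without overlap, as were 2.88% of all genes, and 0 of 10 were lower, against 2.87%. On TPM as deposited both overlapped, so that 0 of 10 were higher without overlap (0.922% of all genes) and Pdia4 alone was lower (6.33%). In all, 8 members were higher and 2 lower (median 0.24, against 0.03 over all genes), and 5 and 5 without the scaling factors. Cardiomyocyte markers were higher for 8 of 8 genes (median log2 difference 0.35), and fibroblast markers lower for 6 of 6 (-0.79), macrophage markers for 7 of 7 (-0.57) and pericyte and smooth muscle markers for 5 of 6 (-0.41). Their part in the members' values was not tested.

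Averaged over treatments, all 10 members were higher in mdx:Utrn+/- with the scaling factors, but 6 were higher and 4 lower without them, 9 higher and 1 lower without mdx:Utrn+/- saline replicate 3, and 8 higher and 2 lower without mdx:Utrn+/- PB1046 replicate 3. The log2 differences were 0.67 for Hspa5 (95% interval 0.19 to 1.16), 0.41 for Hsp90b1 (0.09 to 0.72) and 0.39 for Calr (-0.01 to 0.79). At an unadjusted p under 0.05 there were 2 of 10 members (Hspa5 at 0.0102 and Hsp90b1 at 0.0151, each with an adjusted p of 0.866, limma), both higher, against 3.39% of all genes and 2.12% higher. The 12 libraries are those of the separate comparisons, so this is a summary and not a further test.

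PB1046 was then compared with saline within mdx, which asks whether the peptide analog goes with a different level of these genes. Ddit3 was the member with the largest difference, 0.507 times the saline level, and Pdia4 was next, while the large chaperones were slightly higher with overlap. None of the 10 passed the test (adjusted p 0.999 each, limma; 0 of 12798 genes called, 0.0%).
Ddit3 held 53.85, 55.2 and 51.0 scaled TPM in mdx PB1046, against 88.5, 99.2 and 135.8 in mdx saline. The treated libraries were tightly grouped and lay below every saline library. The means were 53.4 ± 2.17 and 107.8 ± 24.8 (SD, n = 3 each), a log2 change of -0.98 (95% interval -1.69 to -0.27, unadjusted p = 0.0113, adjusted p = 0.999, limma), within -1.12 and -0.79 in every alternative. It was the 1 of 10 members with an unadjusted p under 0.05, against 3.18% of all genes and 1.66% lower (407 and 213 genes; 450 by limma-voom, which called 0), and the 1 of 10 lower without overlap, against 5.31% (also on TPM as deposited, against 2.06%). The count at an unadjusted p under 0.05 was 0 without mdx saline replicate 3, and 3 without the scaling factors, with Hsp90b1 and Pdia4 higher beside Ddit3.

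Pdia4 held 22.00, 16.3 and 16.45 scaled TPM in mdx PB1046, against 13.45, 12.2 and 12.1 in mdx saline. Each treated library lay above each saline library, the 1 of 10 members higher without overlap, against 3.42% of all genes (on TPM as deposited Hsp90b1, Pdia4 and Calr, against 6.56%), and the log2 change was 0.49 (95% interval -0.13 to 1.11). Hspa5 (log2 change 0.28), Hsp90b1 (0.18) and Calr (0.21) were higher on average, with the first library of each group the highest. The groups overlapped only through mdx saline replicate 1. For Hspa5 the change was 0.00 without mdx PB1046 replicate 1 and 0.54 without mdx saline replicate 1.
Herpud1 held 334.5, 80.6 and 186.3 scaled TPM in mdx PB1046, against 163.3, 240.8 and 145.7 in mdx saline, with a wide span within the treated group and a log2 change of -0.06. Atf4 (94.6, 101.0 and 123.2 against 172.1, 112.8 and 110.3, log2 change -0.29), Xbp1 (42.3, 47.7 and 39.8 against 45.8, 33.8 and 34.1, 0.20), Dnajb9 (35.7, 18.5 and 20.3 against 48.7, 10.9 and 16.2, 0.19) and Sdf2l1 (4.66, 5.88 and 4.77 against 5.58, 6.68 and 4.21, -0.08) all overlapped. In all, 6 of 10 were higher and 4 lower (median 0.19, against -0.02 over all genes), and 8 and 2 without the scaling factors, under which the median of all genes was 0.14.
The mdx PB1046 libraries were also shallower than mdx saline (11468009 to 14182350 against 18162940 to 25458194 reads) and held more of the ribosomal precursor Rn45s (11570 to 25860 against 1039 to 10400 TPM), both without overlap. Fibroblast markers summed to 295.3 to 580.6 and 168.9 to 400.7 scaled TPM. The part of these in the Ddit3 and Pdia4 values was not tested beyond the fit with log2 Rn45s as a term, which stands within the range given for Ddit3.

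PB1046 was also compared with saline in mdx:Utrn+/-. Here 0 of 10 members had an unadjusted p under 0.05, against 1.92% of all genes (246 by limma and 211 by limma-voom, with 0 called by either). Of the 10, 0 were higher or lower without overlap, against 3.64% and 2.12%. Counts this near the share over all genes do not show a smaller response than in mdx. Ddit3 held 158.7, 68.3 and 61.0 scaled TPM in mdx:Utrn+/- PB1046, against 80.4, 77.4 and 117.7 in mdx:Utrn+/- saline (log2 change -0.05, 95% interval -0.76 to 0.67). Replicate 1 with PB1046 was the highest Ddit3 value of all 12 libraries, and the other two were below the saline group. Herpud1 had the largest change, with 295.8, 75.2 and 201.8 against 418.5, 234.8 and 319.0 (log2 change -0.93, 95% interval -2.10 to 0.24, unadjusted p = 0.110, adjusted p = 1.0, limma). With the endothelial score as a term the Herpud1 change was -0.37. Replicate 2 with PB1046, the lowest for Herpud1, had the highest endothelial score of the series (1.05). In mdx PB1046, replicate 3 (score 1.03) held 186.3 scaled TPM of Herpud1 and replicate 2 (0.34) held 80.6. The part of endothelial content in the Herpud1 values was not tested beyond that fit. Endothelial markers summed to 164.3 to 440.1 scaled TPM with PB1046 and 102.0 to 185.8 with saline, and macrophage markers to 54.9 to 92.7 and 60.5 to 243.1. The chaperone genes hardly differed on average. Hspa5 held 615.5, 378.0 and 614.0 scaled TPM with PB1046, against 559.1, 625.5 and 436.0 with saline (log2 change -0.03, 95% interval -0.71 to 0.65), and Hsp90b1 339.0, 265.5 and 376.4 against 356.2, 336.4 and 272.8 (0.02). Each group had a low library, replicate 2 with PB1046 and replicate 3 with saline. Calr (log2 change -0.16) and Pdia4 (-0.06) showed the same low libraries, and Sdf2l1 (0.31), Dnajb9 (-0.22), Xbp1 (0.09) and Atf4 (0.07) overlapped throughout. The highest values of Sdf2l1, Dnajb9 and Xbp1 in all 12 libraries (13.36, 53.83 and 65.75) were all in mdx:Utrn+/- PB1046 replicate 3.
In all, 4 members were higher and 6 lower (median -0.04, against 0.02 over all genes), and 7 and 3 without the scaling factors.

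The 2 responses of Ddit3 were compared directly. The difference, mdx:Utrn+/- response minus mdx response, was 0.93 on the log2 scale (95% interval -0.08 to 1.94, unadjusted p = 0.0671, adjusted p = 1.0, limma), and 0.50 without mdx:Utrn+/- PB1046 replicate 1, its high library. No member had an unadjusted p under 0.05 in this contrast (3 without mdx:Utrn+/- saline replicate 3, namely Ddit3, Atf4 and Pdia4), against 2.47% of all genes (316; 282 by limma-voom, with 0 called by either). Averaged over genotypes, Ddit3 was the 1 of 10 members with an unadjusted p under 0.05 for PB1046, against 2.49% of all genes and 1.15% lower, and 0 were called (adjusted p = 1.0, limma). Without the scaling factors the 1 member was Hsp90b1, not Ddit3. The count was 0 without the filter on low values, with the endothelial term, and without mdx:Utrn+/- PB1046 replicate 2 or 3, mdx:Utrn+/- saline replicate 1 or 3, any mdx PB1046 library, or mdx saline replicate 2 or 3.

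**Figure D2:**
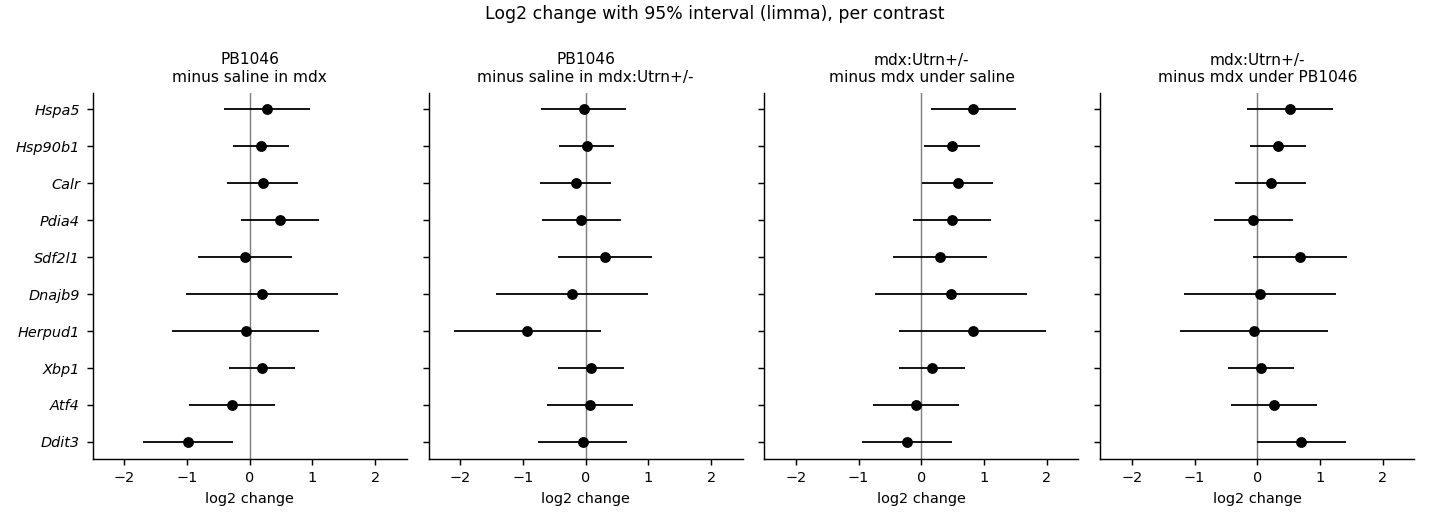
Log2 change (points) with its 95% interval (lines, limma) of each gene in 4 comparisons of single groups, PB1046 minus saline in each genotype and mdx:Utrn+/- minus mdx under each treatment. Under saline the intervals of Hspa5, Hsp90b1 and Calr lie above 0, and Ddit3 lies below 0 with PB1046 in mdx, all before adjustment over the genes.

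The 10 genes did not vary as 1 block. Pearson r of the log2 levels over the 12 libraries, which share tissue, depth differences and group means, is given as a description. Hspa5 and Hsp90b1 had r 0.96 (0.91 after the group means were taken out), Hsp90b1 and Calr 0.92 (0.91), Hspa5 and Calr 0.89 (0.83), and Calr and Pdia4 0.82 (0.85). Hspa5, Hsp90b1 and Calr were thus high and low in much the same libraries. Pdia4 followed Hspa5 (0.66) and Hsp90b1 (0.68) less closely, and Herpud1 followed Calr at 0.61. Ddit3 stood outside, with r -0.01 to Hspa5 and 0.44 to Atf4, the factor that drives it, and Atf4 ran opposite to Pdia4 (-0.65). Xbp1 was nearest to Dnajb9, a target of its spliced form (0.67). Of 45 pairs, 14 had r over 0.5 and 1 had r under -0.5.

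**Figure D3:**
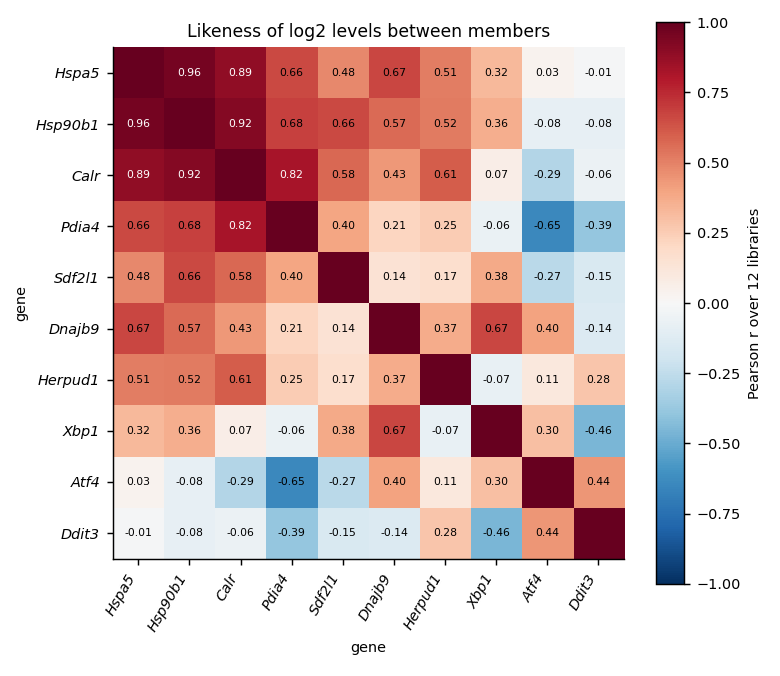
Pearson r of the log2 levels over 12 libraries for each pair of the 10 genes (colour from -1 to 1, value printed in each cell). Hspa5, Hsp90b1 and Calr form the dark corner at the upper left with r of 0.89 to 0.96, and Ddit3, at the lower right, has its highest r with Atf4 (0.44).

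Outside the 10 genes, the transcripts most like Hspa5 over the 12 libraries included Cpt2 (r 0.95; carnitine palmitoyltransferase 2 of mitochondrial fat oxidation), Crls1 (0.93; cardiolipin synthase), Ywhag (0.93; a 14-3-3 protein) and Igsf3 (0.93). Cpt2 ranged over 105.4 to 264.9 scaled TPM. For Ddit3 they included Zranb3 (0.92), Prkrip1 (0.92), Tnnt1 (0.87; slow skeletal troponin T) and Adamts3 (0.85). Against other ER chaperones and folding enzymes, Hspa5 had a median r of 0.68, over 0.5 for 13 of 18 genes, beside a median of 0.035 over all genes, with 2941 of 12798 over 0.5. The median was 0.575 for translocon and vesicle genes (12 of 18 over 0.5), 0.544 for degradation genes (9 of 18) and 0.237 for ATF4 and CHOP target genes (2 of 21).

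Levels were also set beside the endothelial marker score. The endothelial score was above 0 in 5 libraries (0.18 to 1.05), namely replicate 2 of mdx:Utrn+/- PB1046 and replicates 2 and 3 of both mdx groups, and below 0 in 7. Hspa5 was 244.8 to 378.0 scaled TPM in the 5 and 434.3 to 625.5 in the 7, with no overlap, and Dnajb9 was 10.9 to 20.3 and 22.35 to 53.8, also with none. The same 5 libraries were those with a scaling factor over 1 (1.02 to 1.32, against 0.842 to 0.972), and on TPM as deposited Hspa5 (259.7 to 446.3 and 390.8 to 562.3) and Dnajb9 (11.6 to 26.8 and 19.05 to 49.3) overlapped. The 5 were also those above 0 on the first principal component (22.8 to 35.1, against -27.9 to -5.02), so the split is not particular to endothelial markers. Within the 5, Hspa5 was 378.0 at a score of 1.05 and 244.8 at 0.18. Within the 7, it was 614.0 at -0.01 and 625.5 at -0.98. On scaled TPM, Hsp90b1 (213.2 to 265.5 and 255.9 to 376.4) and Calr (209.8 to 249.4 and 234.8 to 426.3) overlapped slightly. Pdia4 (12.1 to 16.45 and 10.2 to 27.3), Sdf2l1 (4.21 to 6.845 and 4.00 to 13.4) and Herpud1 (75.2 to 240.8 and 163.3 to 418.5) overlapped more, as did Xbp1 (33.8 to 47.7 and 34.1 to 65.75) and Atf4 (101.0 to 123.2 and 91.3 to 211.4). Ddit3 (51.0 to 135.8 and 53.85 to 158.7) overlapped almost fully. The 7 libraries include all 3 of mdx:Utrn+/- saline and 1 of mdx saline, so this split runs partly along the genotype comparison, and its part in the chaperone values was not tested beyond the fit with the score as a term.

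**Figure D4:**
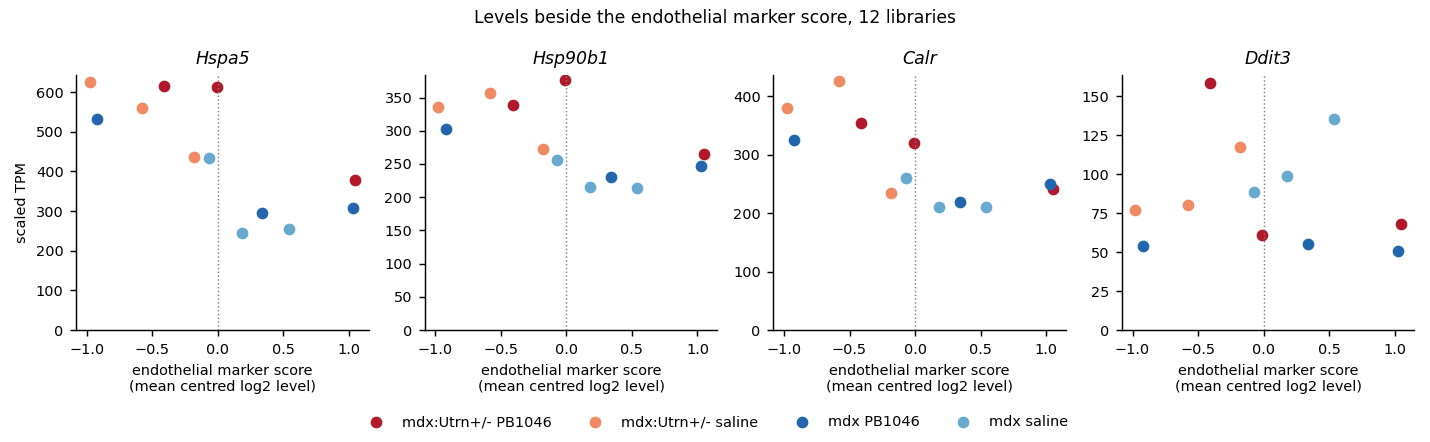
Scaled TPM of Hspa5, Hsp90b1, Calr and Ddit3 (linear axes from 0) against the endothelial marker score, the mean centred log2 level of 6 markers, with a point for each of 12 libraries. Hspa5 is at most 378.0 right of 0 and at least 434.3 left of it on this scale (the ranges overlap on TPM as deposited), while Ddit3 shows no such step.

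The rest of the pathway was described with 7 lists of 99 genes, 95 of them tested, that leave out the 10 members. No gene of any list passed the test in any contrast (0 of 95, limma). The genes named from the lists below were taken for the smallest unadjusted p over the 7 contrasts, so their p-values are low by choice. Of ER chaperones and folding enzymes 17 of 18 were higher in mdx:Utrn+/- than in mdx under saline (median log2 difference 0.36, against -0.02 over all genes). Of the 18, 3 were higher at an unadjusted p under 0.05 (limma), against 1.55% of all genes. The chaperone count was 12 of 18 without the scaling factors and 13 of 18 with the endothelial score as a term, and 17 of 18 without mdx:Utrn+/- saline replicate 3. Of translocon and vesicle genes 17 of 18 were higher (median 0.20), but 9 of 18 without scaling factors and 10 of 18 with the score. Of ER-associated degradation genes 13 of 18 were higher (median 0.16), and 8 of 18 without scaling factors. Without mdx:Utrn+/- saline replicate 3, 14 of 18 translocon and 10 of 18 degradation genes were higher.

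Pdia6, a disulfide isomerase, held 116.1, 115.3 and 72.05 scaled TPM in mdx:Utrn+/- saline, against 76.2, 58.7 and 54.3 in mdx saline (log2 difference 0.65, unadjusted p = 0.0239, adjusted p = 0.867, limma). Replicate 3 of mdx:Utrn+/- again lay inside the mdx range. Manf, a secreted factor kept in the ER by BiP, averaged 0.51 higher over both treatments (unadjusted p = 0.0148, adjusted p = 0.866, limma). Hyou1, the exchange factor of BiP, was 11.2, 12.2 and 9.70 in mdx PB1046 and 8.92, 6.375 and 6.16 in mdx saline (log2 change 0.57, unadjusted p = 0.0287, adjusted p = 0.999, limma). It was higher without overlap, as were 3.42% of all genes.

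Of the degradation genes, Ube2g2, a ubiquitin-conjugating enzyme, differed by 0.58 and Os9, a lectin that delivers misfolded glycoproteins, by 0.37 between genotypes under saline, and Syvn1, the ligase HRD1, by 0.25 averaged over treatments (log2, unadjusted p = 0.0347, 0.0425 and 0.0733, adjusted p = 0.867, 0.867 and 0.866, limma). Of the translocon and vesicle genes, Sec31a of the COPII coat (0.35) and Sec61a1, the channel subunit (0.31), were higher with PB1046 in mdx, and Srprb of the signal recognition particle receptor was higher in mdx:Utrn+/- under saline (0.53). With PB1046 in mdx, 13 of 18 chaperones (median 0.13) and 13 of 18 translocon genes (median 0.12) were higher, against 8 of 18 degradation genes (median -0.01); without the scaling factors the counts were 16, 15 and 16 of 18.

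The PERK side was described next. Eif2ak3, which encodes PERK, held 2.12, 1.90 and 1.795 scaled TPM in mdx:Utrn+/- saline, against 2.87, 3.57 and 3.67 in mdx saline (log2 difference -0.57, unadjusted p = 0.0310, adjusted p = 0.867, limma). It was lower without overlap, as were 5.68% of all genes. Mbtps1, the protease that cuts ATF6, differed by -0.28 there, and Ern1, which encodes IRE1, by 0.29 with PB1046 in mdx. Of the 6 sensors and proteases 4 were higher and 2 lower under saline, and 3 higher without the scaling factors.
Ppp1r15a, the GADD34 subunit that restores translation and a target of CHOP, held 60.4, 44.2 and 35.9 scaled TPM in mdx:Utrn+/- PB1046, against 19.1, 22.3 and 26.4 in mdx PB1046 (log2 difference 1.00, unadjusted p = 0.00979, adjusted p = 0.999, limma). It was higher without overlap on this scale, as were 2.88% of all genes, but the groups overlapped on TPM as deposited. Ppp1r15b, its constitutive relative, changed by 0.45 with PB1046 in mdx, and Eif2b5, a subunit of the exchange factor of eIF2, differed by 0.44 between genotypes under saline, neither with an unadjusted p under 0.05. Of the 7 eIF2alpha kinase, phosphatase and exchange factor genes 6 were higher with PB1046 in mdx:Utrn+/- and 3 in mdx, and 6 in each without the scaling factors.

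Of 21 tested ATF4 and CHOP target genes 12 were higher and 9 lower in mdx:Utrn+/- under saline (median log2 difference 0.15), and 10 higher without the scaling factors. Of the same genes 4 were higher and 17 lower with PB1046 in mdx:Utrn+/- (median log2 change -0.30, against 0.02 over all genes), and 8 higher without the scaling factors. In mdx 8 were higher and 13 lower (median -0.07), and 14 higher without the factors. Cebpb, a dimer partner of CHOP, held 33.8, 14.6 and 23.2 scaled TPM in mdx:Utrn+/- PB1046, against 61.0, 28.85 and 48.1 in mdx:Utrn+/- saline, and 30.5, 28.3 and 36.0 in mdx PB1046, against 21.2, 26.15 and 14.7 in mdx saline. Its responses differed by -1.55 (log2, unadjusted p = 0.00631, adjusted p = 1.0, limma).
Ddit4, which encodes the mTORC1 inhibitor REDD1, was 52.45, 125.6 and 77.3 in mdx PB1046 and 23.2, 53.65 and 14.95 in mdx saline (1.55, unadjusted p = 0.0129, adjusted p = 0.999, limma), with the lowest treated library just under the highest saline library. Stc2, a secreted glycoprotein, changed by -0.82 with PB1046 in mdx:Utrn+/- (unadjusted p = 0.0447, adjusted p = 1.0, limma). Of the 7 tested apoptosis genes linked to ER stress, 3 were higher and 4 lower with PB1046 in mdx (5 higher without the scaling factors), with changes of 0.69 in Tnfrsf10b, a death receptor gene that CHOP is known to raise in human cells, and -0.45 in Txnip averaged over genotypes, while Casp12 differed by -0.40 between genotypes under saline.

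**Figure D5:**
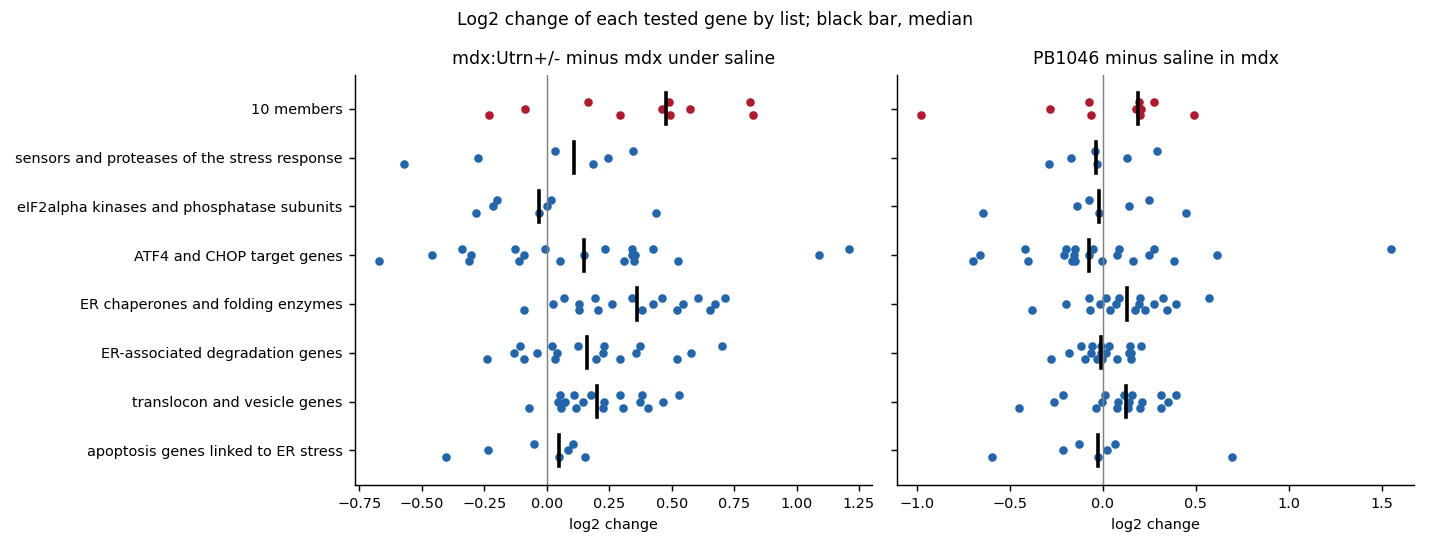
Log2 change of each tested gene (points) and the median (black bar) for the 10 members and 7 pathway lists, mdx:Utrn+/- minus mdx under saline at the left and PB1046 minus saline in mdx at the right. Chaperone and translocon genes lie mostly right of 0 under saline (17 of 18 each), and Ddit3 is the leftmost member at the right (-0.98).

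The authors' deposited table gives its own comparisons, whose log2 fold changes run as the second named group minus the first and so have the opposite sign. Its headers name groups by letter codes that the labels do not spell out, read here from the letters and from the sign and size of all genes' changes (r 0.928 to 0.953). It lists Ddit3 for PB1046 in mdx with a log2 fold change of 0.99 as deposited, a p-value of 0.00469 and a false discovery rate of 1.0. For genotype under saline the authors' deposited table lists Hspa5 with -0.83 (p-value 0.0144), Calr with -0.65 (0.0325) and Pdia4 with -0.65 (0.0424), each with a false discovery rate of 0.935, and for genotype under PB1046 Ddit3 with -0.83 (0.0183, rate 1.0). Under saline Hsp90b1 is listed there with -0.53 and a p-value over 0.05 (0.0551, rate 0.935). The members under 0.05 are thus not the same as above, where Pdia4 had an unadjusted p of 0.111 (limma). By the authors' deposited values, 0 of the table's 18530 genes had a false discovery rate under 0.05 in the 4 comparisons used.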

How the data were processed

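Poly-A RNA of 12 libraries in 4 groups of 3 was compared. The authors deposited a table of 18530 genes on mm10, named as counts but holding TPM, since values carry decimals and add up to 1000000 in each library. edgeR is named, unversioned, in the submitters' processing notes. For the aligner, read counter and gene lengths, nothing is given in the sources used here. Per the file headers the table also holds the authors' log2 fold changes, p-values and false discovery rates of 6 comparisons, of which 4 were used. Whole reads were recovered from the TPM steps for 18530 of 18530 genes (100%, tolerance 0.1 reads) and served for depth and for limma-voom.

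Scaled TPM are TPM over a library factor of 0.842 to 1.32, a mean of log ratios after trimming 30% of ratios and 5% of levels. The 12798 genes that reached 1 TPM in 3 or more libraries were fitted on log2(scaled TPM + 1) with limma 3.58.1 in R 4.3.3, a mean per group over all 12 libraries (8 residual degrees of freedom), trend and robust moderation, and Benjamini-Hochberg adjustment within each of 7 contrasts at 0.05. A log2 change on this scale understates the change of low genes. The fit was tested on simulated data. The 10 members and the lists were chosen with earlier results of these data known. The rule for named genes took all members, up to 3 genes per list with the smallest unadjusted p over the 7 contrasts, and the 5 genes most like each of Hspa5 and Ddit3, of which some are not reported here. Overlapping genes are from GENCODE M21. Of the marker genes, Adgre1, Jchain and Ighm were not matched to a row. Alternatives were other scaling, pseudocounts of 0.1 and 5, other filters, limma-voom, a replicate block, leaving out each library, terms for library number, endothelial score and Rn45s, and plain moderation.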

Additional observations from a re-analysis of the deposited data

How the results depend on the processing

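No member and no gene passed adjustment at 0.05 in 6 of the 7 contrasts under any of 24 alternatives, and in the difference of the PB1046 responses leaving out each library gave 0 to 1 genes called. Of 65 log2 changes recomputed, 42 kept their direction under all 24, among them Ddit3 with PB1046 in mdx and Hspa5, Hsp90b1 and Calr between genotypes under saline. The 65 include 21 pathway genes named for their smallest p, none of which turned; over the 10 members in all 7 contrasts, 32 of 70 values kept their direction and 38 turned at least once. The replicate block gave 0 calls in each contrast. It raised the genes at an unadjusted p under 0.05 between genotypes from 489 to 867 under saline (limma). Averaged over treatments they rose from 434 to 814. With the block, 0 members in place of 1 had an unadjusted p under 0.05 for PB1046 averaged over genotypes. Same-numbered libraries had deviations correlated at -0.45 to 0.49, over 0.1 in 5 of 18 pairs. Deviations from means of 3 libraries cannot settle whether the replicate numbers pair the libraries. With 3 libraries a group, intervals are wide, and Sdf2l1 rests on 24 to 187 reads.

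The direction turned in these cases, given as log2 changes, and the cause was not tested. Without scaling factors, PB1046 in mdx gave Herpud1 0.13 and Sdf2l1 0.087, PB1046 in mdx:Utrn+/- gave Hspa5 0.12, Ddit3 0.10 and Pdia4 0.075, genotype under saline gave Xbp1 -0.046, and genotype under PB1046 gave Xbp1 -0.20, Dnajb9 -0.20 and Calr -0.049. With the endothelial score as a term, PB1046 in mdx:Utrn+/- gave Hspa5 0.38, Ddit3 0.027, Atf4 -0.0084, Pdia4 0.21, Dnajb9 0.26 and Calr 0.11, and genotype under saline gave Dnajb9 -0.023. With log2 Rn45s as a term, PB1046 in mdx gave Atf4 0.054 and Herpud1 0.038, PB1046 in mdx:Utrn+/- gave Atf4 -0.032 and Pdia4 0.0036, genotype under saline gave Atf4 0.083, and genotype under PB1046 gave Atf4 -0.0034, Xbp1 -0.17, Pdia4 0.12 and Dnajb9 -0.42. For Hsp90b1 with PB1046 in mdx:Utrn+/-, median-of-ratios factors gave -0.0045 and limma-voom -0.012.

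Leaving out each library in turn moved members across 0 as follows (log2 changes). With PB1046 in mdx, Herpud1 ranged over -0.54 to 0.48, Dnajb9 over -0.24 to 0.79 and Sdf2l1 over -0.23 to 0.055. With PB1046 in mdx:Utrn+/-, Hspa5 ranged over -0.18 to 0.20, Hsp90b1 over -0.097 to 0.16, Ddit3 over -0.48 to 0.21, Atf4 over -0.14 to 0.46, Xbp1 over -0.18 to 0.28, Pdia4 over -0.45 to 0.22, Dnajb9 over -0.77 to 0.27, Sdf2l1 over -0.013 to 0.71 and Calr over -0.42 to 0.013. Between genotypes under saline, Atf4 ranged over -0.49 to 0.12 and Sdf2l1 over -0.10 to 0.62. Between genotypes under PB1046, Xbp1 ranged over -0.21 to 0.25, Herpud1 over -0.59 to 0.51, Pdia4 over -0.13 to 0.073 and Dnajb9 over -0.50 to 0.54.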

Other observations

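A list of genes other than the members with an ER stress response element in the 250 bases before their start was made after the values of the members were seen. It held 10 tested genes: Acacb, Alg12, Canx, Creld2, Dnajc3, Hnrnpa3, Pan2, Pdia6, Syvn1 and Zfp57. Of these 6 of 10 were higher in mdx:Utrn+/- than in mdx under saline (median log2 difference 0.16, against -0.02 over all genes), 1 of them with an unadjusted p under 0.05 (Pdia6), and none passed the test (limma). With PB1046 in mdx 6 of 10 were higher (median 0.05, against -0.02). The 5 tested genes other than Herpud1 with element II (Lgalsl, Lrif1, Nucb1, Rbm39 and Rcl1) had 1 of 5 higher in mdx:Utrn+/- under saline (median -0.30).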
